A study of Mus musculus with 8 samples.

Results

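The constant region genes of the immunoglobulin loci encode the part of an antibody that sets its class, and the J chain gene encodes the small protein that links antibody units into polymers. The 9 genes described here were chosen by name: the heavy chain constant genes Ighm, Ighg3, Ighg1, Ighg2b, Ighg2c and Igha, the light chain constant genes Igkc and Iglc1, and Jchain. All 9 were present among the 27179 Entrez Gene identifiers of the count table, and each was followed through 8 RNA-seq libraries, 2 for each of 4 sorted bone marrow populations of mice aged 7 to 10 weeks. The Ergfl/fl mice gave 3 stages that follow one another in B cell development, pre-proB, proB and preB, and these mice have Erg alleles flanked by loxP sites and carried no Cre. The other group held pre-proB cells of Rag1CreT/+;ErgΔ/Δ mice, called Erg-deficient here, in which Cre recombinase expressed from Rag1 deletes the floxed alleles in lymphoid progenitors. The genotypes therefore differ in the presence of Cre as well as in Erg. The study's sorting definitions place all 3 stages among B220+ cells without surface IgM, IgD, NK1.1 or CD11c and separate them by CD43 and CD24.

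The heavy chain constant genes lie in a row behind the variable segments, with Ighm first and Igha last. A B cell first transcribes Ighm behind its rearranged variable exon, and activated mature B cells replace it by an IgG, IgE or IgA gene through class switch recombination, a DNA deletion. Constant exons can also be transcribed from start sites in front of each constant gene, without a variable exon, and gene counts do not separate these germline transcripts from those of rearranged genes. Light chain genes rearrange after the heavy chain, at the kappa locus or the lambda locus, and Jchain is known for its expression in cells that secrete polymeric IgM or IgA. In bulk RNA, fewer cells that carry a transcript and less of the transcript per cell cannot be told apart.

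On GRCm38 (mm10) the 6 heavy chain members lie on the minus strand of chromosome 12: Ighm at chr12:113418826-113422730, Ighg3 at chr12:113357442-113361232, Ighg1 at chr12:113326541-113330523, Ighg2b at chr12:113304314-113307933, Ighg2c at chr12:113287389-113288932 and Igha at chr12:113256204-113260236. Igkc, a single constant exon, lies on the plus strand at chr6:70726435-70726754. Iglc1, also a single exon, lies on the minus strand at chr16:19061752-19062071, next to Iglc3 at chr16:19065365-19065681, and Jchain lies at chr5:88519809-88527897, on the minus strand. Because Iglc1 and Iglc3 gave opposite results, 60 coding bases close to the start of the 3 lambda constant genes are shown for comparison. They come from GENCODE vM21 transcripts (chr16:19062010-19062069 for Iglc1, chr16:19198791-19198850 for Iglc2 and chr16:19065620-19065679 for Iglc3, minus strand). Capitals mark the bases at which a gene differs from Iglc3, 13 in Iglc1 and 4 in Iglc2.
Iglc1: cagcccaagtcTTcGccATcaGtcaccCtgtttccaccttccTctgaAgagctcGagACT
Iglc2: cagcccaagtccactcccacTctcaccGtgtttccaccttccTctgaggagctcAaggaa
Iglc3: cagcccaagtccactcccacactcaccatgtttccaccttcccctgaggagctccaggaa

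The 4 Ighg genes are alike in their constant domains and part most clearly in the hinge, the flexible stretch between the antigen-binding arms and the stem. Their hinge exons are shown in capitals, with 12 bases of the neighbouring exon on each side, because the results below depend on telling these genes apart. They lie at chr12:113360529-113360576 in Ighg3, chr12:113329844-113329882 in Ighg1, chr12:113307261-113307326 in Ighg2b and chr12:113288263-113288325 in Ighg2c, on the minus strand, and measure 48, 39, 66 and 63 bases.
Ighg3: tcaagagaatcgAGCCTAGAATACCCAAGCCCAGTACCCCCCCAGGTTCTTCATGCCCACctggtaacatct
Ighg1: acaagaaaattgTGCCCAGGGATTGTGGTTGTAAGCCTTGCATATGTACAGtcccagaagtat
Ighg2b: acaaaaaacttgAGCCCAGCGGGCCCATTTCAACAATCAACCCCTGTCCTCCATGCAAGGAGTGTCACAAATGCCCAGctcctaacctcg
Ighg2c: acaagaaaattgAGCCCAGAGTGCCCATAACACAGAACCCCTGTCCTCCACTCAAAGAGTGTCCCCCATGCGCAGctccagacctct

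How reads that match several genes were treated is not given in the sources used here. Over their longest transcripts, the longest run of identical bases was 88 between Ighg3 and Ighg2b, 78 between Ighg2b and Ighg2c, 79 between Iglc2 and Iglc3, and 17 between Iglc1 and Iglc3. None of the 100-base windows of any member's counted exons, 100 bases being the stated read length, occurred in another gene of the GENCODE transcripts. A shorter read, or a read with a mismatch, could still match more than 1 of the IgG genes.

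Library totals lay between 15565381 and 18457632 counts, so 3 counts corresponded to between 0.163 and 0.193 CPM (counts scaled to library size). CPM values were scaled by TMM factors over the 8 libraries, and n = 2 for every mean ± SD. Erg RNA, the target of the deletion, was at 69.1 and 25.3 CPM in Ergfl/fl pre-proB cells and at 2.50 and 2.58 CPM in Erg-deficient ones. Il2ra, which marks preB cells, rose in order through the Ergfl/fl stages, from means of 5.91 to 66.4 and 299 CPM. Pre-proB libraries of both genotypes held far more RNA of plasmacytoid dendritic cell genes than the later stages, with the 16 genes of that list summing to between 18198 and 21699 CPM in the 4 pre-proB libraries, 1709 and 1787 CPM in proB and 4160 and 4195 CPM in preB. Itgax, which encodes CD11c, was among the transcripts high in pre-proB cells, at 326 and 405 CPM in Ergfl/fl and 384 and 453 CPM in Erg-deficient libraries, although the sort gated on cells without CD11c.

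Does the loss of Erg change the immunoglobulin RNA of pre-proB cells? In Erg-deficient pre-proB cells 5 of the 9 members fell and none rose: the IgG genes Ighg3, Ighg2b and Ighg2c and the light chain genes Igkc and Iglc1. Ighm, the most abundant member, overlapped between the genotypes, at 95.8% of the control mean. Ighg1, Igha and Jchain lay below both control libraries in both Erg-deficient libraries, but these 3 genes did not pass the test, and their Erg-deficient replicates lay far apart. An exact permutation test of 2 libraries against 2 gives a p of 0.33 at best, so this separation alone says little. Over all 13005 genes tested in this comparison, 1.16% were called at an adjusted p below 0.05 by edgeR's quasi-likelihood test, 0.215% as higher and 0.946% as lower. All 9 members passed the filter of 0.5 CPM in 2 libraries, but Ighg3, Ighg2c, Ighg2b and Ighg1 did so through the control libraries, since at most 1 Erg-deficient library reached that level, so that they could only come out lower and the count of members called is no more than a description. The median log2 fold change of the members was -2.20, beside 0.01 over all genes. It includes Ighg3, Ighg2c, Ighg2b and Ighg1, so it too is no more than a description. Where 1 library was left out, its group was a single library that was assumed to vary like the other libraries of the fit, in this comparison the 2 of the other genotype, so these p-values show only how far a value rests on that library.

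**Figure D1:**
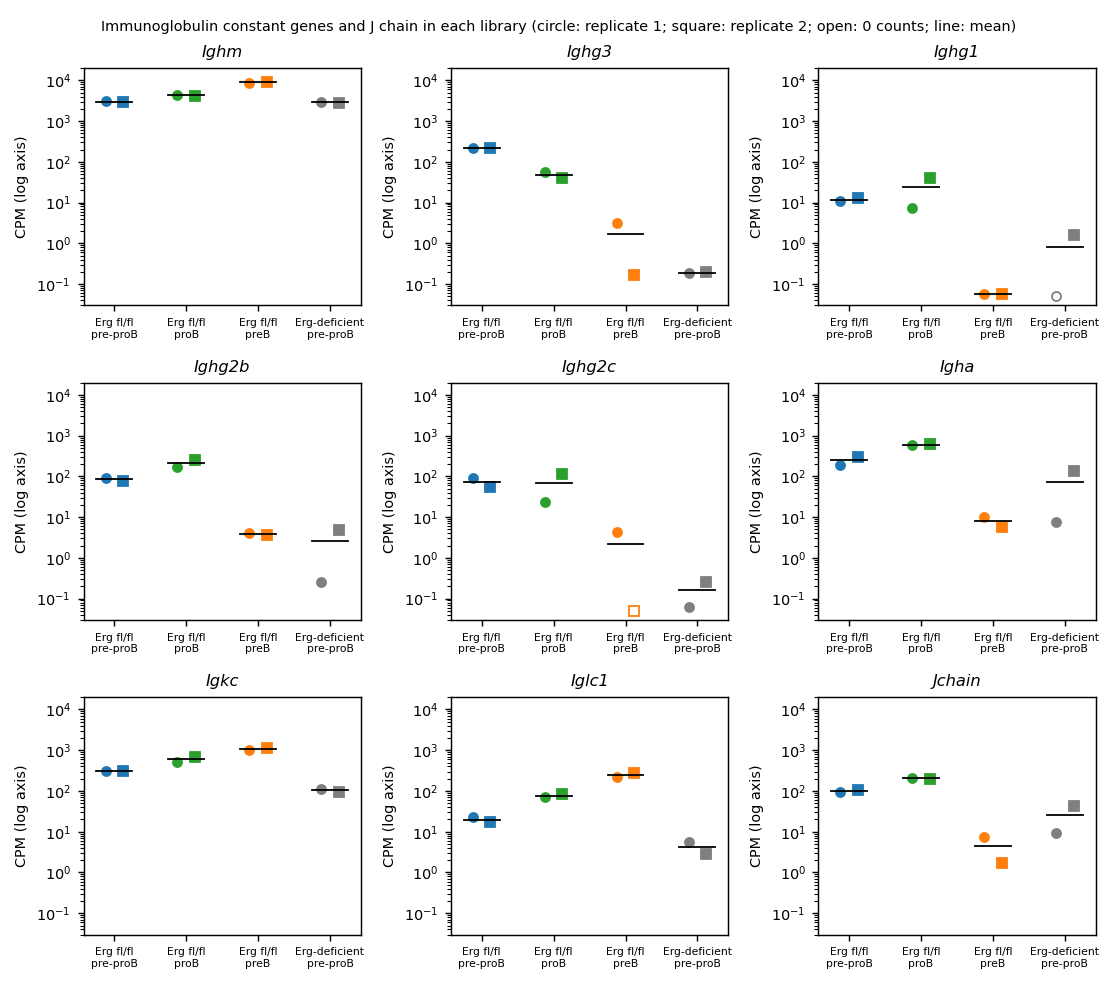
Level of each member in every library, in CPM on a log axis, by population. Circles are replicate 1, squares replicate 2, lines the mean of both, and open symbols at the bottom libraries with 0 counts. Ighm, Igkc and Iglc1 climb from pre-proB to preB, whereas the switched classes and Jchain drop by the preB stage. The Erg-deficient replicates lie far apart for Igha, Ighg2b, Ighg1 and Jchain, and for Ighg2c on 1 and 4 counts.

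Ighm encodes the mu chain of IgM, the first heavy chain a B cell makes. It was at 3136 and 2879 CPM in the Ergfl/fl pre-proB libraries and at 2938 and 2826 CPM in the Erg-deficient ones. The genotypes overlapped, and the log2 fold change was -0.07 (SE 0.09, edgeR adjusted p = 0.784). Under no alternative setting was it called, and the adjusted p lay between 0.657 and 1.00. Per kb of counted exon, Ighm was at 2016 ± 122 CPM per kb in Ergfl/fl and 1932 ± 53.4 CPM per kb in Erg-deficient pre-proB cells.

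Ighg3 encodes the constant region of IgG3. It was at 224 and 216 CPM in Ergfl/fl pre-proB cells, 7043 counts over both libraries, and only 3 counts were found in each of the Erg-deficient libraries. The 4 values left a wide gap between the genotypes, with a ratio of control to Erg-deficient counts of 1191 (95% interval 547 to 3247, for counting error only). The fitted log2 fold change was -10.13 (SE 0.13, edgeR adjusted p = 5.67e-07), the lowest p among the members in this comparison. At 3 counts a library this SE understates the error, since the counting interval alone is far wider. The call was kept in all 14 alternatives in which Ighg3 could be tested.

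Ighg2c encodes the constant region of IgG2c. It was at 91.2 and 54.7 CPM in control cells and at 0.0625 and 0.258 CPM in Erg-deficient cells, where the 2 libraries held 1 and 4 counts. Control counts were higher by a ratio of 471 (95% interval 202 to 1452, counting error only). The log2 fold change was -8.79 (SE 0.51, edgeR adjusted p = 0.00296), and this SE too understates the counting error. Without Erg-deficient replicate 2, which left 1 count, the adjusted p was 0.0506, and the call was also lost with limma-voom (adjusted p = 0.135) and with robust estimation in edgeR (0.131).

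Ighg2b encodes the constant region of IgG2b. It was at 92.6 and 76.6 CPM in control libraries, against 0.250 CPM in Erg-deficient replicate 1 and 4.84 CPM in replicate 2. Both Erg-deficient libraries were below the control range, but they differed from each other by 19.4-fold. The mean was 33.2-fold lower, with a log2 fold change of -5.08 (SE 0.55, edgeR adjusted p = 0.0178), and without Erg-deficient replicate 2 it was -8.37. The call was lost with limma-voom (adjusted p = 0.0724) and with robust edgeR (0.323).

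Ighg1, the gene of IgG1, was the least abundant IgG gene in control pre-proB cells, at 10.7 and 12.6 CPM. It had 0 counts in Erg-deficient replicate 1, which allows up to 0.179 CPM, and 25 counts (1.61 CPM) in replicate 2. The log2 fold change of -3.86 (SE 0.77) did not pass the threshold, with an edgeR adjusted p of 0.0787. It was called in 4 of 16 alternatives. The adjusted p was 0.0414 with no filter, 0.0493 and 0.0304 without control replicate 1 and 2, and 0.0162 without Erg-deficient replicate 2, where the library left had 0 counts and no fold change is given.

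Igha encodes the constant region of IgA. It was at 194 and 297 CPM in control cells, at 7.62 CPM in Erg-deficient replicate 1 and at 139 CPM in replicate 2. Both Erg-deficient values were below both control values, but their 18.2-fold difference was far above the 1.53-fold difference between the control libraries. The log2 fold change was -1.76 (SE 0.93, edgeR adjusted p = 0.499). It was -5.02 with an adjusted p of 0.0257 without Erg-deficient replicate 2, and -0.83 with an adjusted p of 0.319 without replicate 1.

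Jchain had a similar spread. It was at 96.5 and 106 CPM in control cells, at 9.56 CPM in Erg-deficient replicate 1 and at 42.0 CPM in replicate 2, a 4.39-fold difference between replicates. The log2 fold change was -1.99 (SE 0.52, edgeR adjusted p = 0.159). With a single Erg-deficient library in the fit it was -3.42 (adjusted p = 0.00210) without replicate 2 and -1.28 (0.0282) without replicate 1, values that rest on the spread of the control libraries alone. Ighg2b, Ighg1, Igha and Jchain were thus each higher in Erg-deficient replicate 2 than in replicate 1, whereas Ighm, Igkc and Iglc1 were lower in replicate 2. Ighg2c was also higher in replicate 2, on 4 counts against 1, and Ighg3 had 3 counts in each.

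The light chain members, Igkc and Iglc1, fell with smaller differences between Erg-deficient replicates than Igha and Jchain had. The lambda gene Iglc3, which is not a member, did not fall and is described below. Igkc, the only constant gene of the kappa locus, was at 316 and 316 CPM in control cells and at 113 and 93.9 CPM in Erg-deficient cells. Its mean was 32.8% of the control mean, with a log2 fold change of -1.62 (SE 0.10, edgeR adjusted p = 0.00296), and all 16 alternatives kept the call. Iglc1, a constant gene of the lambda locus, was at 22.4 and 17.1 CPM in control and at 5.75 and 2.90 CPM in Erg-deficient cells. Its log2 fold change was -2.20 (SE 0.30, edgeR adjusted p = 0.0304). The Iglc1 call was lost when either Erg-deficient library was left out, at -2.78 with an adjusted p of 0.0727 without replicate 1 and at -1.79 with 0.134 without replicate 2, and it was also lost with limma-voom (0.0680) and robust edgeR (0.109).

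**Figure D2:**
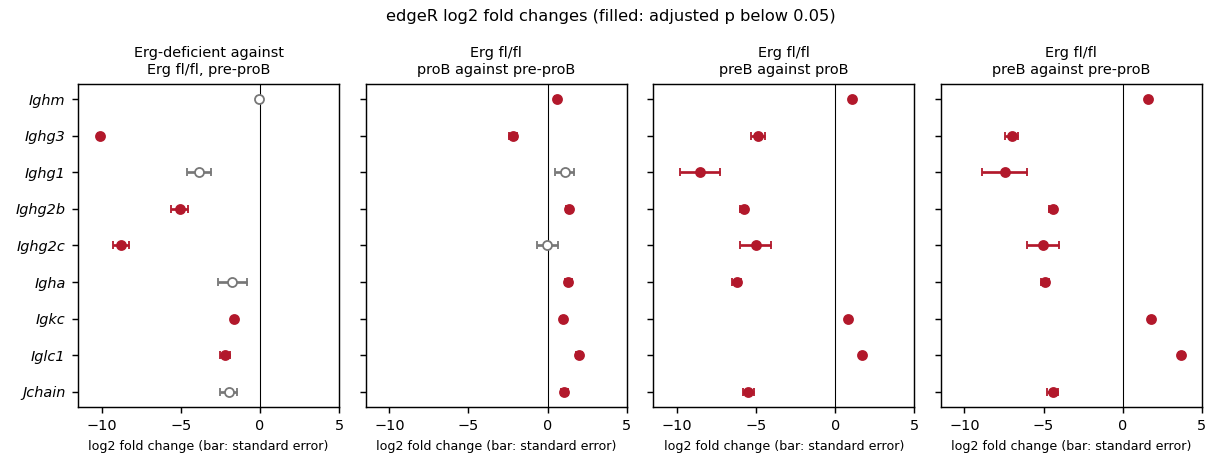
Fitted edgeR log2 fold changes of the members (horizontal axis) in the 4 comparisons. Bars are standard errors, which understate the error where a group holds few counts. Filled symbols passed an adjusted p of 0.05: 5 members in the comparison of genotypes, all of them lower, 7 in proB against pre-proB, and all 9 in both comparisons of preB cells, with Ighm, Igkc and Iglc1 higher and the rest lower.

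The second question is how the members behave along the Ergfl/fl stages. Ighm, Igkc and Iglc1 rose at both steps, from pre-proB to proB and from proB to preB. Ighg2b, Igha and Jchain rose from pre-proB to proB and then fell steeply to preB, Ighg3 fell at both steps, and Ighg1 and Ighg2c differed between stages only in that preB cells held less than the others. In proB against pre-proB cells 6 members were higher and 1 lower, where 73.0% of the 13650 genes tested were called, 36.2% as higher and 36.8% as lower. In preB against proB cells 3 were higher and 6 lower, where 58.9% of genes were called, 29.0% as higher and 29.9% as lower. In preB against pre-proB cells the same counts of 3 and 6 stood beside 70.7% of genes called, 36.5% as higher and 34.1% as lower. Most genes were called between stages, so the number of members called is no result in itself. Ighg3, Ighg1 and Ighg2c also passed the filter through the earlier stages, since at most 1 preB library reached 0.5 CPM. They could only come out lower in preB cells, so the 6 lower and the preB median given next are no more than a description. The median log2 fold change of the members was 1.05 in proB against pre-proB cells, where it was 0.00 over all genes, and -4.43 in preB against pre-proB cells, beside 0.04 over all genes. The comparisons share libraries and their values stand side by side, not as independent evidence.

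Among the rising genes, Ighm was at 4473 and 4221 CPM in proB and 8824 and 9261 CPM in preB cells, above the 3136 and 2879 CPM of pre-proB cells. No 2 stages overlapped. The log2 fold changes were 0.57 (SE 0.08, edgeR adjusted p = 0.000261) from pre-proB to proB and 1.06 (SE 0.08, adjusted p = 1.91e-05) from proB to preB.

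Igkc was at 528 and 684 CPM in proB and at 1026 and 1132 CPM in preB cells. Each stage lay above the one before it, with log2 fold changes of 0.97 (SE 0.12, edgeR adjusted p = 9.78e-05) and 0.84 (SE 0.12, adjusted p = 0.000461). Erg-deficient pre-proB cells, at 113 and 93.9 CPM, held the lowest Igkc level of the 4 populations.

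Iglc1 rose most among the members, to 70.0 and 83.1 CPM in proB and to 219 and 278 CPM in preB cells. The steps were log2 fold changes of 1.99 (SE 0.16, edgeR adjusted p = 6.92e-06) and 1.70 (SE 0.14, adjusted p = 2.65e-05), and preB cells held 12.6-fold the mean level of pre-proB cells. The order of the 4 populations was the same for Iglc1 as for Igkc, with Erg-deficient pre-proB cells lowest and preB cells highest and no overlap between neighbours.

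Igha reached its highest level in proB cells, at 580 and 611 CPM, against 194 and 297 CPM in pre-proB cells. It was nearly gone from preB cells, at 10.2 and 5.63 CPM. The rise was a log2 fold change of 1.31 (SE 0.21, edgeR adjusted p = 0.000443), which was not called when all 8 libraries were fitted together (adjusted p = 0.161), and the fall was -6.23 (SE 0.28, adjusted p = 2.81e-06), 75.4-fold between the means. In the order of levels, Erg-deficient pre-proB cells were not separable from preB cells, because their 2 libraries, at 7.62 and 139 CPM, lay on both sides of the higher preB library.

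Jchain followed Igha. It was at 210 and 200 CPM in proB cells, above the 96.5 and 106 CPM of pre-proB cells, and at 7.50 and 1.69 CPM in preB cells. The rise was a log2 fold change of 1.05 (SE 0.23, edgeR adjusted p = 0.00330) and was not called with DESeq2 (adjusted p = 0.207), robust edgeR (0.0731) or all 8 libraries in one fit (0.0621). The fall to preB cells was -5.48 (SE 0.33, edgeR adjusted p = 6.44e-06) and was called in all 16 alternatives.

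Ighg2b was at 173 and 247 CPM in proB cells, above both pre-proB libraries at 92.6 and 76.6 CPM, and at 4.07 and 3.55 CPM in preB cells. Both steps were larger than the difference between replicates, with log2 fold changes of 1.35 (SE 0.16, edgeR adjusted p = 6.40e-05) and -5.78 (SE 0.23, adjusted p = 2.19e-06). It was the most abundant IgG gene in proB cells, whereas Ighg3 was in pre-proB cells.

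Ighg3 fell to 54.7 and 40.8 CPM in proB cells, a log2 fold change of -2.17 (SE 0.25, edgeR adjusted p = 6.72e-05) that DESeq2 did not call (0.123). In preB cells it was at 3.14 CPM in replicate 1 and 0.169 CPM in replicate 2, with 54 and 3 counts. The fall from proB to preB was -4.85 (SE 0.43, edgeR adjusted p = 3.85e-05), and without preB replicate 1 it rested on 3 counts. Ighg3 was therefore the only member that was called lower in proB than in pre-proB cells.

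Ighg2c and Ighg1 differed most between the proB replicates. Ighg2c was at 24.0 and 116 CPM and Ighg1 at 7.37 and 40.4 CPM in the 2 proB libraries, 4.85-fold and 5.48-fold higher in replicate 2. Against pre-proB cells neither was called, with log2 fold changes of -0.01 (SE 0.65, edgeR adjusted p = 0.988) for Ighg2c and 1.08 (SE 0.60, adjusted p = 0.133) for Ighg1. For Ighg1 the direction depended on the proB library, with 1.85 (edgeR adjusted p = 3.16e-05) without replicate 1 and -0.65 (adjusted p = 0.0290) without replicate 2. Ighg2c likewise ranged from -1.60 without proB replicate 2 to 0.73 without replicate 1, and was called in neither case.

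In preB cells Ighg2c had 75 counts (4.36 CPM) in replicate 1 and 0 counts in replicate 2, which allows up to 0.172 CPM, and Ighg1 had 1 count in each library. The Ighg2c log2 fold change from proB to preB was -5.02 (SE 1.00, edgeR adjusted p = 0.00268). Without preB replicate 1 the preB cells had 0 counts, and no fold change is given. It was not called with DESeq2 (adjusted p = 0.0558), limma-voom (0.106) or robust edgeR (0.0757). Ighg1 counts were higher in proB than in preB cells by a ratio of 441 (95% interval 122 to 3649, counting error only), with an edgeR adjusted p of 0.000621 that was 0.0912 with limma-voom.

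How much of the heavy chain constant RNA did each class make up? In counts over the 8 heavy chain constant genes, Ighm made up 81.6% ± 1.60 in Ergfl/fl pre-proB cells, 81.0% ± 2.91 in proB cells and 98.0% ± 0.316 in preB cells. The switched classes together, which are the 4 Ighg genes with Ighe and Igha, took 16.2% and 18.3% in the 2 pre-proB libraries and 15.6% and 19.7% in the proB libraries, but 0.242% and 0.0998% in preB. In Erg-deficient pre-proB cells they took 0.272% in replicate 1 and 4.86% in replicate 2, both below every Ergfl/fl pre-proB and proB library. Shares were not tested, since the smallest two-sided p of an exact permutation test with 2 libraries per group is 0.33.

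The makeup of the IgG RNA also differed by stage. Ighg3 made up 56.8% ± 4.55 of the counts of the 4 Ighg genes in Ergfl/fl pre-proB cells, and 21.1% and 9.20% in the proB libraries. Ighg2b made up 22.1% and 21.3% in pre-proB and 66.8% and 55.5% in proB libraries. The summed level of the 4 genes was 419 and 360 CPM in pre-proB and 259 and 444 CPM in proB libraries, which overlapped, and 11.6 and 3.77 CPM in preB. In Erg-deficient cells 115 counts of the 4 genes were left over both libraries, most of them in replicate 2 (6.91 CPM). The leading IgG gene thus differed between stages whose IgG sums overlapped.

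**Figure D3:**
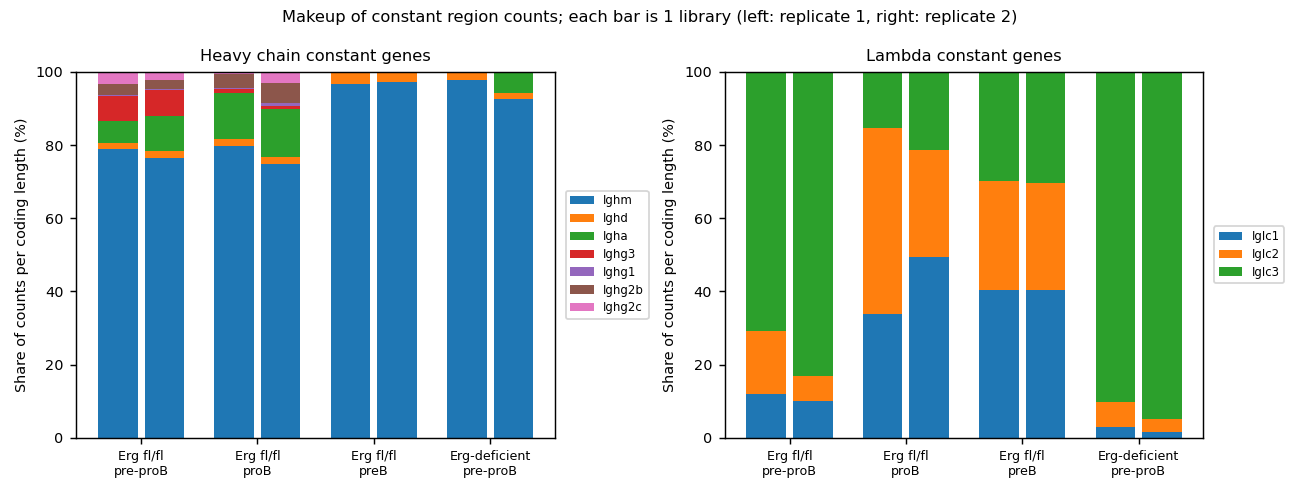
Makeup of the constant region RNA in each library, as percent of counts divided by counted exon length, for the heavy chain genes (left) and the 3 lambda genes (right). Ighm makes up at least 92.6% in preB and Erg-deficient libraries, and Iglc3 makes up between 70.7% and 94.8% of lambda RNA in pre-proB libraries of both genotypes but at most 30.5% in proB and preB libraries.

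Levels per kb of counted exon allow the chains to be set side by side. In Ergfl/fl pre-proB cells Ighm was at 2016 ± 122 CPM per kb, Igkc at 988 ± 0.701, Igha at 200 ± 58.8, Ighg3 at 183 ± 4.92, Jchain at 72.8 ± 4.94, Ighg2c at 72.4 ± 25.6, Ighg2b at 69.1 ± 9.21, Iglc1 at 61.8 ± 11.6 and Ighg1 at 9.77 ± 1.15 CPM per kb. Jchain, Ighg2c, Ighg2b and Iglc1 lay within each other's spread, as did Igha and Ighg3. Igkc per length was 47.0% and 51.3% of Ighm in Ergfl/fl pre-proB libraries, between 54.2% and 75.5% in the proB and preB libraries, and 16.7% ± 1.78 in Erg-deficient ones. The ratio of kappa to mu RNA was thus lower in both Erg-deficient libraries than in any other library.

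The constant genes outside the members were Ighd, Ighe, Iglc2 and Iglc3. Ighd, which is transcribed together with Ighm and encodes the delta chain of IgD, was at 43.0 and 44.1 CPM in Ergfl/fl pre-proB and at 35.4 and 30.7 CPM in Erg-deficient cells. Its log2 fold change of -0.41 did not pass (edgeR adjusted p = 0.0908). Through the stages it rose as Ighm did, to 73.2 and 70.1 CPM in proB and 175 and 154 CPM in preB cells. Ighe, the gene of IgE, had at most 2 counts in any library and was not tested.

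The lambda genes did not move alike. Iglc3 was at 132 and 142 CPM in Ergfl/fl pre-proB cells, at 31.5 and 35.5 CPM in proB and at 161 and 208 CPM in preB cells. It fell from pre-proB to proB by 2.00 on the log2 scale (SE 0.13) and rose again by 2.47 (SE 0.13), while Iglc1 rose at both steps. In Erg-deficient pre-proB cells Iglc3 was at 174 and 173 CPM, above both control libraries, with a log2 fold change of 0.33 that missed the threshold (edgeR adjusted p = 0.0741), whereas Iglc1 was called lower. Whether the 2 genotype effects differ was not tested. Iglc2 varied between replicates, at 32.5 and 11.9 CPM in Ergfl/fl pre-proB libraries and at 105 and 48.7 CPM in proB libraries, with 160 and 199 CPM at the preB stage. It was at 12.9 and 6.58 CPM in Erg-deficient libraries. Of these other constant genes 0 of 3 tested were called between genotypes by edgeR, all 3 had an unadjusted p below 0.05, and DESeq2 called 1 and limma-voom 0.

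**Figure D4:**
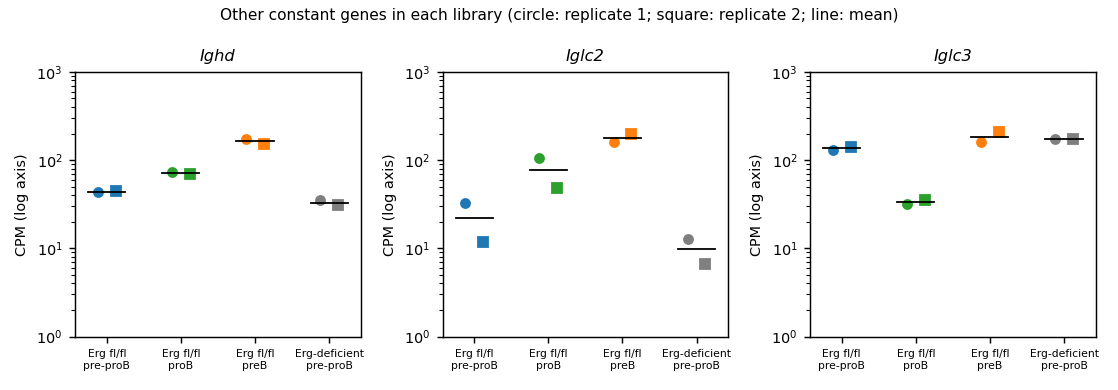
Level of Ighd, Iglc2 and Iglc3 in every library, in CPM on a log axis. Circles are replicate 1, squares replicate 2 and lines the mean. Ighd climbs with stage, and Iglc3 is lowest in proB libraries, at 31.5 and 35.5 CPM, and highest on average in preB, at 161 and 208 CPM, with the Ergfl/fl pre-proB libraries between them at 132 and 142 CPM.

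Genes that act on the constant regions were described from lists. In proB against pre-proB cells 12 of 16 class switch genes rose and 2 fell, beside 36.2% and 36.8% of all genes. Those that rose included the repair genes Exo1 (log2 fold change 2.31), Msh6 (0.92) and Rif1 (0.85). In preB against proB cells 3 of the 16 rose and 9 fell, beside 29.0% and 29.9% of all genes. Between genotypes 0 of 15 tested were called by edgeR, 2 had an unadjusted p below 0.05 and DESeq2 and limma-voom called 0.

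Partners of immunoglobulin assembly split by kind. Between genotypes 5 of 18 fell and 0 rose by edgeR, beside 0.946% and 0.215% of all genes. By edgeR 8 had an unadjusted p below 0.05, and DESeq2 called 5 and limma-voom 0. The 5 that fell by edgeR were the surrogate light chain genes Vpreb1, Vpreb2 and Igll1, the related Vpreb3, and Cd79a. Cd79a encodes a signalling chain of the B cell receptor. Vpreb2 passed the filter of 0.5 CPM through the control libraries, so it could only come out lower. Igll1 was at 249 and 84.7 CPM in Ergfl/fl pre-proB and 1.44 and 2.45 CPM in Erg-deficient cells (log2 fold change -6.44, edgeR adjusted p = 0.0178). Its control libraries thus differed by more than those of Igkc, which were both at 316 CPM. None of the chaperone genes of the endoplasmic reticulum was called. Hspa5, which encodes BiP, the chaperone that holds free heavy chains, was at 709 and 843 CPM in control and 902 and 928 CPM in Erg-deficient cells.

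Of 14 genes for immunoglobulin receptors, 10 were tested between genotypes and 0 called by edgeR, with 7 at an unadjusted p below 0.05, 1 called by DESeq2 and 0 by limma-voom. Fcmr, which encodes the receptor for IgM, was at 7.70 and 5.35 CPM in control and 1.44 and 2.52 CPM in Erg-deficient cells (log2 fold change -1.73, edgeR adjusted p = 0.0763). From proB to preB cells 7 of 12 tested rose and 3 fell, again beside 29.0% and 29.9% of all genes. Fcmr rose with Ighm, from a mean of 31.9 to 111 CPM, and Fcrl1 from 14.8 to 66.4 CPM. Pigr, which encodes the receptor that carries polymeric antibodies across epithelia, had 0 counts in every pre-proB library.

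Markers of cells that secrete antibodies or of other cell types were read beside the members. The 16 plasma cell-like genes summed to 1735 and 1873 CPM in Ergfl/fl pre-proB, 1576 and 1507 CPM in proB, 2196 and 2185 CPM in preB and 1974 and 1967 CPM in Erg-deficient pre-proB libraries. In Ergfl/fl pre-proB cells its most abundant genes were Txndc5 and Xbp1, which serve protein folding and secretion, at means of 477 and 446 CPM. The sums hide genes that moved in opposite directions, as Irf4, a transcription factor of B and plasma cells, rose from a mean of 66.1 CPM in pre-proB to 886 CPM in preB cells while Xbp1 fell to 82.7 CPM. In proB against pre-proB cells 4 of 16 rose and 9 fell, beside 36.2% and 36.8% of all genes, and in preB against proB cells 8 rose and 3 fell, beside 29.0% and 29.9%. Tnfrsf17, which encodes BCMA, a receptor of plasma cells, had 3 and 12 counts in the Ergfl/fl pre-proB libraries and 10 and 8 counts in the proB libraries. It had 1 and 0 counts in the preB libraries and 2 and 7 counts in the Erg-deficient ones. These counts were too few for the test between genotypes. Sdc1, which encodes CD138, was at 49.9 and 55.0 CPM in control and 49.0 and 54.1 CPM in Erg-deficient pre-proB cells, and none of the 16 genes was at 0 counts over a group. Between genotypes 0 of 15 tested were called by edgeR, 5 had an unadjusted p below 0.05, DESeq2 called 2 and limma-voom 0. The part of such cells in the levels of the switched classes and Jchain was not tested.

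Of 12 mature B-like genes, Ighd included, 2 of 11 tested were lower in Erg-deficient cells and 0 higher, beside 0.946% and 0.215% of all genes. They were Ms4a1, which encodes CD20, at 7.83 and 6.56 CPM against 0.250 and 1.16 CPM, and Cxcr5, at 7.89 and 4.92 CPM against 1.62 and 1.68 CPM. Ms4a1 reached 0.5 CPM in 2 libraries only through the controls, so it could only come out lower. The sum of the 12 genes was 256 and 224 CPM in Ergfl/fl pre-proB, 149 and 152 CPM in Erg-deficient, 710 and 681 CPM in proB and 1521 and 1622 CPM in preB libraries. It climbed through the stages while the switched classes fell to preB. By edgeR 8 of the 11 had an unadjusted p below 0.05 between genotypes, DESeq2 called 5 and limma-voom 0. In proB against pre-proB 9 of 12 rose, beside 36.2% of all genes, and in preB against proB 11 of 12, beside 29.0%. None was at 0 counts over a group.

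The plasmacytoid dendritic-like genes, whose sums are given above, were not called between genotypes (0 of 16 by edgeR, 6 at an unadjusted p below 0.05, 3 by DESeq2, 0 by limma-voom), and all 16 fell from pre-proB to proB cells. Siglech, their defining surface receptor, was at 3856 and 3825 CPM in Ergfl/fl pre-proB, 3953 and 4507 CPM in Erg-deficient, 46.5 and 56.5 CPM in proB and 11.2 and 11.5 CPM in preB libraries. The sum of the list rose from proB to preB cells. Of its 16 genes, however, 10 were called lower and 3 higher at this step, beside 29.9% and 29.0% of all genes. Iglc3 and Ighg3 were the constant genes whose level was higher in Ergfl/fl pre-proB than in proB cells with a call, and of these Iglc3 was high in Erg-deficient cells too and Ighg3 was not. The T-like and NK-like list summed to 859 and 1031 CPM in Ergfl/fl pre-proB, 1755 and 1247 CPM in Erg-deficient, 94.5 and 109 CPM in proB and 38.5 and 42.0 CPM in preB libraries. In Erg-deficient cells 5 of 14 genes were higher, such as Ncr1 (log2 fold change 3.01) and Gzma (3.17), and 0 lower, beside 0.215% and 0.946% of all genes. Of these 14 genes 9 had an unadjusted p below 0.05 between genotypes, DESeq2 called 7 and limma-voom 0. No gene of either list was at 0 counts over a group, and their part in the members' levels was not tested.

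**Figure D5:**
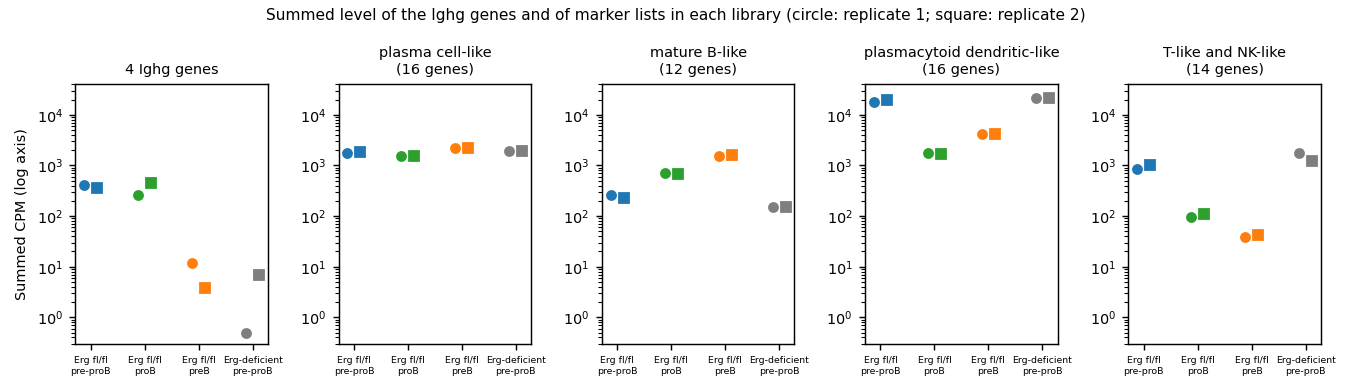
Summed CPM on a log axis of the 4 Ighg genes and of 4 lists of cell type genes in each library (circle, replicate 1; square, replicate 2). The Ighg sum drops in preB and Erg-deficient libraries to at most 11.6 CPM, the plasma cell-like sum, whose genes move in opposite directions between stages, lies between 1507 and 2196 CPM, and the plasmacytoid dendritic-like sum is highest in pre-proB cells of both genotypes.

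Which genes followed the members most closely over the 8 libraries was described by Pearson's r of log2(CPM + 1), among 13584 genes outside the immunoglobulin loci. The points share 4 populations of 2 libraries each, so stage and genotype alone can give a high r. Jchain was the gene most like Igha, with r = 0.977, and the next were Fuom, Gbe1, Fabp5 and Tm6sf1, with r of at most 0.964. For Jchain itself they were Fuom, 2310061I04Rik, Tm6sf1, Nhlrc1 and Il1r1, with r between 0.952 and 0.968. These r values do not show the size of a change. Igha means lay between 7.90 and 596 CPM, but those of Gbe1 only between 17.2 and 21.8 CPM. Fuom had means of at most 1.43 CPM and Nhlrc1 of at most 0.770 CPM.

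Igkc was most like Rag1, the gene of the recombinase that rearranges these loci, with r = 0.983, followed by Steap4, Col27a1, Gm15408 and Ifi214. On the scale of log2(CPM + 0.1) Rag1 was not among the 5, and only Ifi214 of these genes was. Rag1 had means of 201, 611 and 1885 CPM from pre-proB to preB and of 8.23 CPM in Erg-deficient cells. Iglc1 was most like Egr1 (r = 0.995), Scn4a, Ifi214, Gm15408 and Mgst1. The 5 genes most like Ighm were Rrm2b (r = 0.999), Zfp703, Iqcb1, Mxi1 and Etnk2, and those most like Ighg2b were Pgr (r = 0.963), Trem1, Ccdc141, Aipl1 and Igsf23, all with means under 5 CPM in every population.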

How the data were processed

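RNA-seq counts of 8 libraries, 2 for each of 4 sorted populations, were used. The authors deposited whole-number counts of read pairs per Entrez Gene identifier, without normalization, after adapter removal with Trim Galore, alignment to mm10 with STAR and featureCounts with Rsubread's built-in annotation. The use of strand and of reads that match several genes is not given in the sources used here. RefSeq named 25275 of 27179 identifiers. Groups came from the labels, and the study's methods give independent sorts from 2 mice per genotype. Fits used edgeR 4.0.16 in R 4.3.3 (legacy quasi-likelihood F-test, TMM, 0.5 CPM in 2 libraries, Benjamini-Hochberg adjustment over all genes kept, called below 0.05), with 4 pre-proB libraries for genotype and 6 Ergfl/fl libraries for stage. The procedure was also run on simulated counts, in which all genes had the same spread and only genes with many counts changed. Those data did not cover members with few counts or with replicates far apart. Standard errors are the log2 fold change over the square root of F, and they understate the error where a group holds few counts. Intervals of count ratios (95%, exact) and limits of 3 counts cover counting error only. Lengths are coding exons inside the RefSeq interval (all exons for Jchain).

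The members and gene lists were chosen with earlier results of these data known. The text names all members, the other constant genes, up to 4 genes with the lowest p per list and comparison, the most abundant markers, the defining marker of a cell type list, and the 5 genes most like each of 6 members. Hspa5, Tnfrsf17, Sdc1, Pigr, Il2ra and Itgax were also named, for their role. Some genes that this rule names are not reported here. Alternatives were other scalings, filters, DESeq2 1.42.0, limma-voom (limma 3.58.1), robust or version 4 edgeR fits, a replicate block, 1 fit of 8 libraries and each library left out. Figures were drawn with matplotlib 3.10.9.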

Additional observations from a re-analysis of the deposited data

How the results depend on the processing

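The number of all genes called between genotypes, 151 in the values reported, was 442 with all 8 libraries in 1 fit, 400 with DESeq2, 279 with no filter, 265 with the replicate block, 88 with edgeR's version 4 quasi-likelihood and 41 with limma-voom. Leaving out 1 library gave between 10 (without Erg-deficient replicate 2) and 401 (without Ergfl/fl pre-proB replicate 2), with 16 without Erg-deficient replicate 1. The number of members called between genotypes, 5 in the values reported, was 2 with limma-voom and 2 with robust edgeR, in both cases Ighg3 and Igkc. The replicate numbers were not taken as pairs, because which mouse gave which library is not given in the sources used here, although the Ergfl/fl stages may share mice. The replicate deviations of the genotypes correlated with r = 0.01 over 13815 genes and those of the Ergfl/fl stages with r between 0.03 and 0.17, and the replicate block changed no call of a member. Of 140 member values in the genotype comparison 123 kept direction and call, 9 lost a call, 7 gained one and 1 changed sign. Of the values in each stage comparison 132 to 140 kept direction and call. Without 1 pre-proB library Ighm between genotypes lay between -0.16 and 7.06e-05 on the log2 scale, never called. In proB against pre-proB cells Ighg1 ranged from -0.65 to 1.85 and Ighg2c from -1.60 to 0.73 with 1 library left out, and Ighg2c was 0.040 with total counts, 0.0041 with library sizes without immunoglobulin genes and 0.00025 with a filter of 1 CPM. The cause was not tested. Igkc's 5 most alike genes kept 1 of 5, without Rag1, with a prior count of 0.1, and those of Ighg2b and Jchain 3 of 5. With 2 libraries a group, p-values rest only on the spread between these libraries. The fits also draw the spread of each gene towards that of the other genes.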
